A study of Homo sapiens with 20 samples.

Results

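The genes described here are the erasers and YTH-domain readers of N6-methyladenosine (m6A), the methyl mark that METTL3 and its partners write on adenosines of RNA. They are 7 of the 20037 protein-coding genes on the annotated chromosomes: the eraser genes FTO and ALKBH5, and the reader genes YTHDF1, YTHDF2, YTHDF3, YTHDC1 and YTHDC2. They were chosen by name and not by a rule on measured values, though earlier results of these data were known. For each, every interval of the deposited peak lists that overlapped the gene body or the 20 kb on either side was recorded with its position, its width and, where the list has one, its score.

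Open chromatin was measured by ATAC-seq, in which a transposase cuts and tags accessible DNA, in LOVO and RKO, established human lines of colon adenocarcinoma. In each line cells carried a short hairpin against METTL3 (shMETTL3) or a control hairpin (shControl), and were left untreated or exposed to olaparib, a drug that inhibits PARP enzymes of DNA repair. The 20 samples are, per line, 2 of shMETTL3 with olaparib, 2 of shControl with olaparib, 2 of untreated shMETTL3 and 4 of untreated shControl, of which 2 carry a second-batch label. Dose, duration, hairpin sequence and whether a line is a single clone are not given in the labels used here.

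Peak lists, 5 per line, are the unit of every comparison, because each is named for a group. How the samples of a group were combined is not given, and peak names in the scored lists carry replicate 1. Untreated shControl has 2 lists per line, one of merged intervals without scores and one with scores, and which of them holds the second-batch samples is not given. Untreated shMETTL3 has a merged list only, and both olaparib groups have scored lists. No test between groups was possible, and each value stands without a replicate error. The depth behind the lists is unknown, and they ran from 6916 intervals (untreated RKO shMETTL3) to 51462 (LOVO shMETTL3 with olaparib). A missing interval therefore does not show closed chromatin. Levels of RNA and of m6A were not analysed here. Of 10 markers of colon epithelium, 4 to 10 had a start peak in a LOVO list but 0 to 4 in an RKO list, and 6 had none in any RKO list, so that the RKO lists show little of the labelled tissue. Of 5 leukocyte, 5 fibroblast and 4 endothelial markers, at most 3, 1 and 0 had one in a LOVO list, and 1, 2 and 0 in an RKO list.

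Erasers remove the mark that the writer adds. FTO and ALKBH5 are dioxygenases of the AlkB family that use iron and 2-oxoglutarate to demethylate RNA, and FTO also acts on a related methyl mark beside the mRNA cap. Readers bind the mark through the YTH domain. The YTHDF proteins act on mRNA in the cytoplasm, where YTHDF2 recruits a deadenylase complex to it. YTHDC1 is nuclear and acts in splicing and export, and in mouse cells it binds methylated LINE1 RNA on chromatin. YTHDC2 is an RNA helicase that mouse germ cells need for meiosis.

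Bases upstream of 4 gene starts are shown because intervals covered them and because the start peaks behaved differently in RKO shMETTL3. Each stretch runs 5′ to 3′ on the gene's own strand, ends 1 base before the outermost annotated gene start and comes from RefSeq on GRCh38.p14. Capitals mark the motifs searched, on both strands: the ETS motif CCGGAAG, the NRF1 motif GCATGCGC, the cAMP response element (CRE) TGACGTCA, the short form of CRE TGACG, which overlaps it, the SP1 box GGGCGG, the NFY box CCAAT, the YY1 motif AAGATGGC, the TATA box TATAAA and the E-box CACGTG. They were in 12.8% (ETS), 3.74% (NRF1), 2.26% (CRE), 27.9% (short CRE), 56.3% (SP1), 34.7% (NFY), 3.53% (YY1), 9.47% (TATA) and 8.34% (E-box) of 22199 promoters of the RefSeq table.
FTO, chr16:53703906-53703962, plus strand, start peak in all lists: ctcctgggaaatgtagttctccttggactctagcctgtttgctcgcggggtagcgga
YTHDF1, chr20:63216132-63216281, minus strand, start peak in all lists: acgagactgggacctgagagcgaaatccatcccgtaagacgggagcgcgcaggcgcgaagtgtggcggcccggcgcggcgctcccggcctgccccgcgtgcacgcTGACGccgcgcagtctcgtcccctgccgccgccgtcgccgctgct
YTHDC1, chr4:68350091-68350240, minus strand, no start peak in untreated RKO shMETTL3: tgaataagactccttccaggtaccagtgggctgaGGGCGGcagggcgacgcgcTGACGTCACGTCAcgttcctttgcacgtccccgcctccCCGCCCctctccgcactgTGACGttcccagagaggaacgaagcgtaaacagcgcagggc
YTHDC2, chr5:113513544-113513693, plus strand, no start peak in untreated RKO shMETTL3: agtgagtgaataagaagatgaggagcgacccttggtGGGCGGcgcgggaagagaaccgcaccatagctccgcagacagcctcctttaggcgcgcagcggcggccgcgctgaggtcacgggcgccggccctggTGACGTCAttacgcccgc

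The whole CRE stood in the promoters of both YTHDC genes, with its first base at -97 relative to the start of YTHDC1 and at -18 relative to that of YTHDC2. It was in no other promoter of the 6 members that the RefSeq table holds, which counts 250 bases before and 50 after a start. All 150 printed bases of YTHDC1 lay under an interval in every list but untreated RKO shMETTL3, where 0 did, and 123 to 150 of the YTHDC2 bases did in those same 9 lists. A start peak was missing from untreated RKO shMETTL3 for 190 of 362 genes with the CRE that had one in merged shControl (52.5%, 95% exact interval 47.2 to 57.7) and for 4720 of 8894 genes without it (53.1%, 52.0 to 54.1). The intervals of these shares overlap and cover counting error only. They also overlapped for the ETS, NRF1 and YY1 motifs, the TATA box and the E-box. They did not overlap for the NFY box, the SP1 box and the short CRE. Shares lost with and without the NFY box were 44.5% (43.0 to 46.1) and 59.9% (58.5 to 61.2). For the SP1 box they were 51.6% (50.4 to 52.7) and 58.8% (56.5 to 61.0), and for the short CRE 50.3% (48.7 to 51.9) and 55.0% (53.7 to 56.4). Whether any motif bears on the loss was not tested.

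Start peaks, meaning intervals within 1 kb of an annotated start, were present for FTO, ALKBH5, YTHDF1 and YTHDF3 in all 10 lists and for YTHDF2, YTHDC1 and YTHDC2 in 9. Among all protein-coding genes 20.6% had a start peak in every list and 35.7% in 9 or more. The members therefore belong to the genes that were open in nearly every condition studied. The missing peaks were all from 1 list, untreated RKO shMETTL3. In all, 189 intervals lay at the 7 genes, 116 in LOVO lists and 73 in RKO lists, from 89 to 1478 bp wide. They joined to 50 regions, of which 4 were in all 10 lists, 4 in 9, and 17 in a single list.

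**Figure D1:**
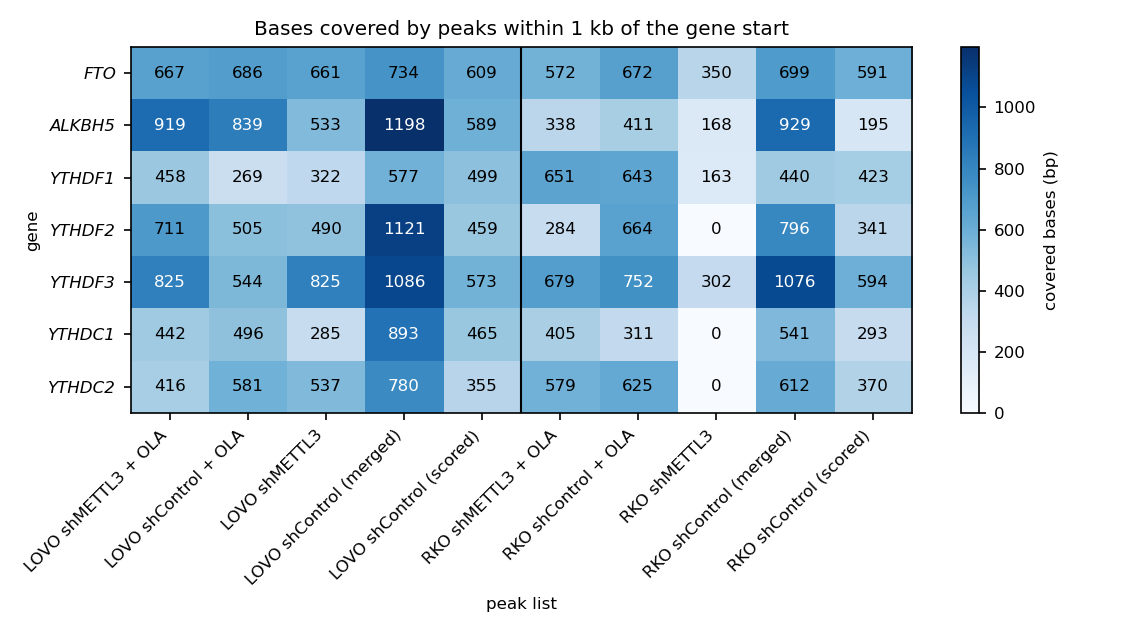
Bases covered by peaks within 1 kb of the start, for the 7 genes (rows) in the 10 lists (columns, LOVO left of the line and RKO right of it). Darker cells are higher; the 3 cells at 0 are YTHDF2, YTHDC1 and YTHDC2 in untreated RKO shMETTL3.

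FTO (chr16:53703963-54121941, plus strand) had the start peak with the highest score among the members in 5 of the 6 scored lists. In LOVO the peak covered 667 bp within 1 kb of the start in shMETTL3 with olaparib, 686 bp in shControl with olaparib, 661 bp in untreated shMETTL3, and 734 and 609 bp in the merged and scored lists of untreated shControl. In RKO it covered 572, 672, 350, 699 and 591 bp in the same order of groups. The widths varied little in LOVO, and untreated RKO shMETTL3 was the narrowest. Scores were 26.8, 17.8 and 19.9 in LOVO (shMETTL3 with olaparib, shControl with olaparib, untreated shControl), above 98.1 to 99.8% of the intervals of the same list. In RKO they were 14.7, 15.2 and 9.55, with the last above 74.9% of its list. Scores are the authors' own, from a peak caller's column that is not named, and are used only within a list.

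The FTO peak is not FTO's alone. The neighbouring gene RPGRIP1L, whose product works at the base of the cilium, ends 104 bp to the left of the FTO gene on the same chromosome, and 1 region, chr16:53703599-53704332, covered the starts of both. The 306 bp from 53703906 to 53704211 were under an interval in all 10 lists, and the printed FTO stretch lies within them, between the annotated ends of the 2 genes. The lists give no means to assign the peak to one of the genes.

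ALKBH5 (chr17:18183828-18209954, plus strand) had a wide start peak in LOVO and a small one in most RKO lists. In LOVO intervals covered 919 bp in shMETTL3 with olaparib, 839 bp in shControl with olaparib, 533 bp in untreated shMETTL3, and 1198 and 589 bp in merged and scored untreated shControl. In RKO the values were 338, 411, 168, 929 and 195 bp. The 2 untreated RKO shControl lists thus differed by more than untreated shMETTL3 and the scored control list did. The 919 bp in LOVO shMETTL3 with olaparib came from 2 intervals that carry the name of 1 deposited peak. What all 10 lists shared lay upstream, from -482 to -327 relative to the annotated start. Of the 150 bases just before the start, 0 were covered in RKO shControl with olaparib, untreated RKO shMETTL3 and the scored untreated RKO shControl list, and 6 in RKO shMETTL3 with olaparib. Merged RKO shControl was the exception, with all 150 covered.

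YTHDF1 (chr20:63195429-63216131, minus strand) had more start bases covered in RKO than in LOVO in both olaparib groups, as YTHDC2 had. LOVO lists had 458 bp in shMETTL3 with olaparib, 269 bp in shControl with olaparib, 322 bp in untreated shMETTL3, and 577 and 499 bp in merged and scored untreated shControl. RKO lists had 651, 643, 163, 440 and 423 bp. A second region centred 800 bp inside the gene, at chr20:63215192-63215469, was present in the 3 scored RKO lists and in no LOVO list, and it made up part of the RKO values. The main region, centred at -138 relative to the start, was in all 10 lists.

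YTHDF2 (chr1:28736624-28769775, plus strand), the reader tied to mRNA decay, had scores above 13.2 to 58.5% of the intervals of the same list. LOVO intervals covered 711 bp in shMETTL3 with olaparib, 505 bp in shControl with olaparib, 490 bp in untreated shMETTL3, and 1121 and 459 bp in merged and scored untreated shControl. RKO had 284, 664, 0, 796 and 341 bp. The score in scored untreated RKO shControl was 4.94, above 13.2% of that list and the lowest of the 7 members there. RefSeq gives the gene 2 starts, at 28736624 and 28736940, and the 271 bp shared by 9 lists lay 101 to 371 bases past the first, over the second. The shared part thus lay over the inner start. Intervals also spanned the outer start in the merged untreated shControl lists of both lines and in RKO shControl with olaparib.

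YTHDF3 (chr8:63168553-63212788) has no strand in the tables used, so both ends were examined, and all its start intervals lay at the left-hand end. LOVO intervals there covered 825 bp in shMETTL3 with olaparib, 544 bp in shControl with olaparib, 825 bp in untreated shMETTL3, and 1086 and 573 bp in merged and scored untreated shControl. RKO had 679, 752, 302, 1076 and 594 bp. These were the largest values of any member in 4 of the 5 RKO lists, and in untreated RKO shMETTL3 YTHDF3 was next after FTO. The peak also overlapped YTHDF3-DT, a long non-coding gene that ends 111 bp to the left.

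YTHDC1 (chr4:68310387-68350090, minus strand), the nuclear reader, had a start peak with a high score. LOVO intervals covered 442 bp in shMETTL3 with olaparib, 496 bp in shControl with olaparib, 285 bp in untreated shMETTL3, and 893 and 465 bp in merged and scored untreated shControl. RKO had 405, 311, 0, 541 and 293 bp. Scores were 22.5, 15.2 and 16.4 in LOVO (shMETTL3 with olaparib, shControl with olaparib, untreated shControl) and 13.5, 10.01 and 11.0 in RKO. The score was second to FTO in all 3 LOVO lists.

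YTHDC2 (chr5:113513694-113595284, plus strand) gave the start peak with the highest score of the 7 in scored untreated RKO shControl, 12.3, above 91.1% of that list. LOVO intervals covered 416 bp in shMETTL3 with olaparib, 581 bp in shControl with olaparib, 537 bp in untreated shMETTL3, and 780 and 355 bp in merged and scored untreated shControl. RKO had 579, 625, 0, 612 and 370 bp. Here a member with a strong peak in one control list had no interval at all in untreated shMETTL3. The lncRNA gene LOC124901046 ends 36 bp to the left and shares the peak.

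**Figure D2:**
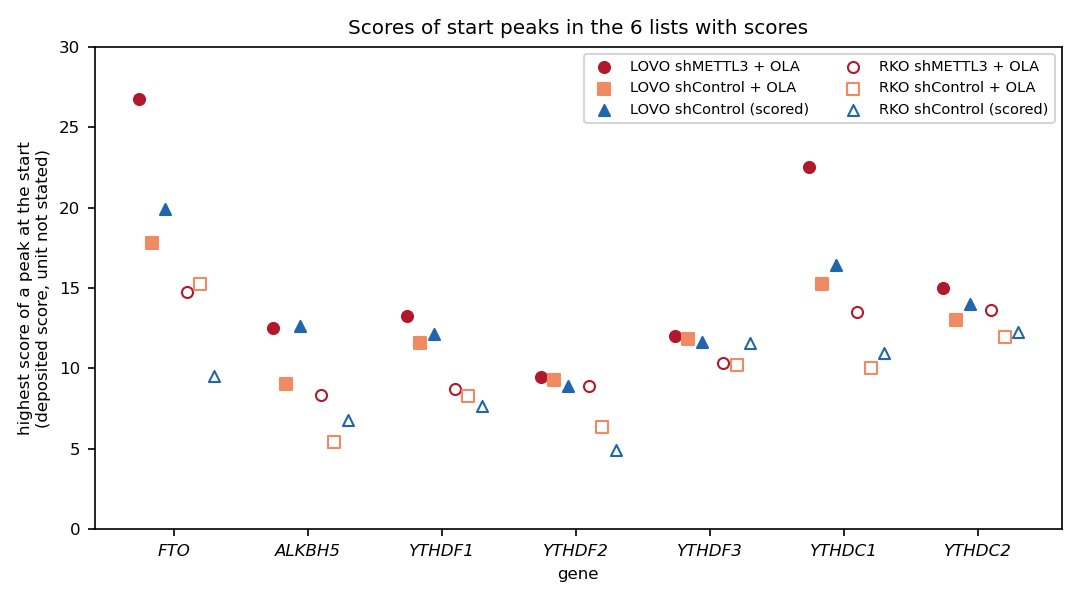
Highest deposited score of a start peak (vertical axis, unit not stated) for the 7 genes in the 6 lists with scores; filled symbols are LOVO and open symbols RKO. FTO reaches 26.8 in LOVO shMETTL3 with olaparib, and YTHDF2 lies lowest in untreated RKO shControl at 4.94.

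Untreated shMETTL3 was set against untreated shControl, both as merged lists, to see how the erasers and readers fared with the hairpin against the writer. In LOVO every member kept its start peak, while in RKO YTHDF2, YTHDC1 and YTHDC2 had none and FTO, ALKBH5, YTHDF1 and YTHDF3 kept theirs. In LOVO 0 of 7 were therefore lost, beside 30.6% of 10412 genes with a start peak in shControl. In RKO 3 of 7 were lost, beside 53.6% of 11129 genes. The members' share lay below that of all genes in LOVO and near it in RKO, and neither difference was tested. The RKO count was 5 with 200 bp of cover required and 1 with lists of equal number.

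Losses in RKO were also read within ranges of the control score, which leave out the genes between and above them. FTO and YTHDF1, which kept their peaks, fall outside the ranges. Whether score bears on loss was not tested. In score ranges chosen after the values were seen, 24.4% of 652 genes lost the peak whose scored untreated shControl score lay between those of YTHDC1 and YTHDC2, and of the 3 members in that range YTHDC1 and YTHDC2 did and YTHDF3 did not. Of 3340 genes with a score up to that of ALKBH5, 67.6% lost it; of the 2 members there YTHDF2 did and ALKBH5 did not.

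What remained was narrower. Among members with a peak in both lists the covered start bases in shMETTL3 were a median 0.558 of those in shControl in LOVO (7 members) and 0.326 in RKO (4 members), beside 0.683 and 0.315 over all such genes. FTO had the highest ratio of the members in both lines, 0.901 in LOVO, with 85.7% of genes at or below it, and 0.501 in RKO, with 82.6%. YTHDC1 had the lowest ratio in LOVO, 0.319, with 5.91% of genes at or below it, and it was among the 3 lost in RKO. ALKBH5 had ratios of 0.445 and 0.181.

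Over the whole windows, 13 intervals lay at the 7 genes in LOVO shMETTL3 against 23 in shControl, and 4 against 17 in RKO. Fewer intervals were found at 4 members in LOVO (FTO, ALKBH5, YTHDF2 and YTHDF3), beside 67.6% of genes, and at all 7 in RKO, beside 85.8%. More were found at 0 members in either line, beside 1.11% and 0.942% of genes. The 4 intervals in RKO shMETTL3 were all start peaks, so that every region away from a start was missing. The members' ratios of 0.565 and 0.235 lay near those of the whole lists, 0.490 and 0.247. With 200 bp of cover required 5 members were lost in RKO, and with lists of equal number only YTHDF2, when the interval ratios became 1.18 in LOVO and 1.33 in RKO. The RKO ratio was 0.364 against the scored control list, 0.125 in gene bodies alone, 0.444 with 5 kb either side and 0.123 by covered bases.

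Both untreated shControl lists of a line were set against each other, one merged and one scored. All 7 members had a start peak in both lists of both lines, beside 2.77% of genes lost in the scored list in LOVO and 13.9% in RKO. Scored lists held 28 intervals in LOVO and 11 in RKO, against 23 and 17 in the merged lists. More intervals were found in the scored list at 4 members in LOVO (48.3% of genes) and at 0 in RKO (14.0%), and fewer at 0 in LOVO (9.39%) and at 5 in RKO (46.4%). Differences of 5 and 6 intervals over the windows thus arose between lists named for the same group, where form, batch and sample spread cannot be told apart. The same holds for the choice of control list in every comparison with untreated shControl. Neither control list of RKO lacked a start peak of a member.

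In shControl cells, scored lists with olaparib were set against those without it. All 7 start peaks were present with and without the drug in both lines, beside 7.02% of genes lost in LOVO and 2.32% in RKO. LOVO had 20 intervals at the members with olaparib and 28 without, and RKO had 18 with olaparib and 11 without. In LOVO 4 members had fewer intervals (FTO, ALKBH5, YTHDF3 and YTHDC1; 47.7% of genes) and YTHDC2 had 1 more (8.05%). In RKO 5 members had more (FTO, ALKBH5, YTHDF1, YTHDF3 and YTHDC2; 39.6%) and 0 had fewer (13.4%). The ratios were 0.714 in LOVO and 1.64 in RKO at the members, and 0.777 and 1.22 for the whole lists. Against the merged control list they were 0.870 (20 against 23 intervals) and 1.06 (18 against 17), and with lists of equal number 0.952 (20 against 21) and 1 (11 against 11), so that the RKO surplus depended on the control list and on list length.

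Start cover in RKO also depended on the control list. ALKBH5 had 411 bp with olaparib, against 195 bp in the scored and 929 bp in the merged untreated list. YTHDF2 had 664 bp with olaparib, against 341 and 796 bp, and YTHDC2 had 625 bp, against 370 and 612 bp. Between scored lists the median ratio was 1.52 over the members and 1.24 over all genes in RKO, and 1.10 and 0.986 in LOVO. The lowest ratio was that of YTHDF1 in LOVO, where start cover was 269 bp with olaparib and 499 bp without, and 4.78% of genes had a ratio as low or lower.

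Under olaparib, shMETTL3 was compared with shControl, again in scored lists. No member lost its start peak in either line, beside 1.37% of genes in LOVO and 1.55% in RKO. The 3 reader genes without a peak in untreated RKO shMETTL3 had one here in both groups. Their cover was 284, 405 and 579 bp in shMETTL3 with olaparib against 664, 311 and 625 bp in shControl with olaparib. YTHDF2 had a ratio of 0.428, and 1.36% of genes had one as low or lower. The median ratio was 0.903 over the members and 1.01 over all genes in RKO, and 1.10 and 1.09 in LOVO.

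As deposited, the lists held more intervals at the members with shMETTL3 under the drug. LOVO had 32 at the members in shMETTL3 with olaparib and 20 in shControl with olaparib, and RKO had 23 and 18. In LOVO 5 members had more (FTO, ALKBH5, YTHDF1, YTHDF3 and YTHDC2; 63.4% of genes) and 0 fewer (4.21%). In RKO 4 had more (FTO, ALKBH5, YTHDF3 and YTHDC1; 51.0%) and YTHDF1 had fewer (9.53%). The ratio of 1.60 in LOVO equalled that of the whole lists to 3 digits, and the 1.28 in RKO lay below their 1.37; with lists of equal number the ratios were 1.05 in LOVO (21 against 20 intervals) and 0.889 in RKO (16 against 18).

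Olaparib in shMETTL3 cells had to be set against a merged list, so form and treatment cannot be told apart there. No member lost a start peak in LOVO (0 of 7, beside 0.178% of genes) or RKO (0 of 4, beside 0.328%). YTHDF2, YTHDC1 and YTHDC2 gained one in RKO, 3 of 3, beside 40.6% of 14855 genes without one in untreated shMETTL3, where 6035 gained one. These are not like sets, because the 14855 include genes with no start peak in untreated shControl, where the 3 members had one. Genes with a peak in merged untreated RKO shControl and none in untreated shMETTL3 numbered 5965. LOVO had 32 intervals at the members with olaparib and 13 without, RKO 23 and 4. More were found at 6 members in LOVO (all but YTHDC1; 86.1%) and at all 7 in RKO (90.6%), and fewer at 0 members in LOVO (0.0706%) and in RKO (0.395%). With lists of equal number the ratios of 2.46 and 5.75 became 0.692 and 0.750. By covered bases the LOVO ratio was 1.62, and the RKO ratio was 3.25 with 5 kb either side and 10 in gene bodies alone (10 against 1 intervals).

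**Figure D3:**
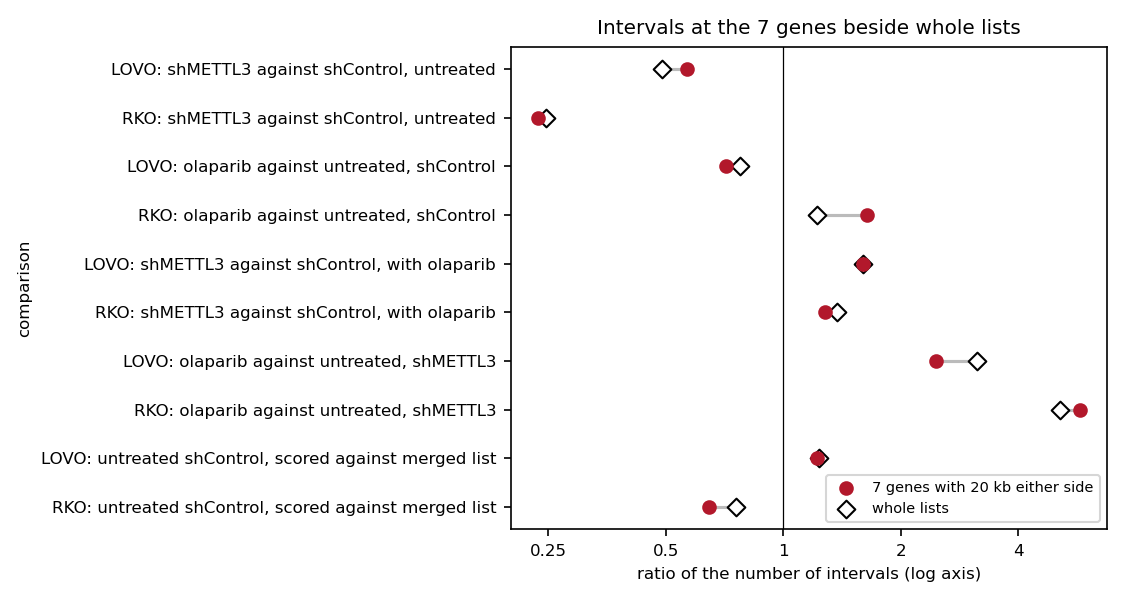
Ratio of the number of intervals, on a log axis, for the 7 genes with 20 kb either side (filled circles) and for the whole lists (open diamonds), in the 4 comparisons and between the untreated shControl lists of each line. Members and whole lists lie on the same side of 1 in every pair and are farthest apart for olaparib in RKO shControl (1.64 and 1.22).

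Away from starts the members' loci held 37 regions, 20 in gene bodies and 17 in flanks, beside 3 further regions at the start of LLGL1, the polarity gene to the right of ALKBH5. Exons and introns were not told apart. In these 37, 21 were in LOVO lists only, 11 in RKO lists only and 5 in both, where genome-wide 52.5% of 57720 such regions were in LOVO lists only and 26.0% in RKO lists only. A single list held 14 of the 37, beside 33.9% genome-wide. Without FTO, 8 of 21 regions were in LOVO only and 8 in RKO only. Requiring 2 or more lists of a line left 13 in LOVO only and 5 in RKO only.

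FTO's gene body had intervals at different places in the 2 lines. LOVO lists held 13 regions within it, from 28.4 to 177 kb past the start, and RKO lists held none of these. RKO lists had 1 of their own, 373 kb past the start, and 2 on the RPGRIP1L side. Over its 5 lists LOVO had 38 intervals at FTO and RKO 10, and 94.6% of genes had a ratio as low or lower, with a median ratio of 1.08. More intervals in LOVO were found at 5 members, beside 53.0% of all genes. FTO, at 418 kb the longest member by far, makes up 48.5% of the length examined, and per 100 kb of window its 2.62 intervals in LOVO shMETTL3 with olaparib were fewer than the 6.59 at YTHDF1.

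**Figure D4:**
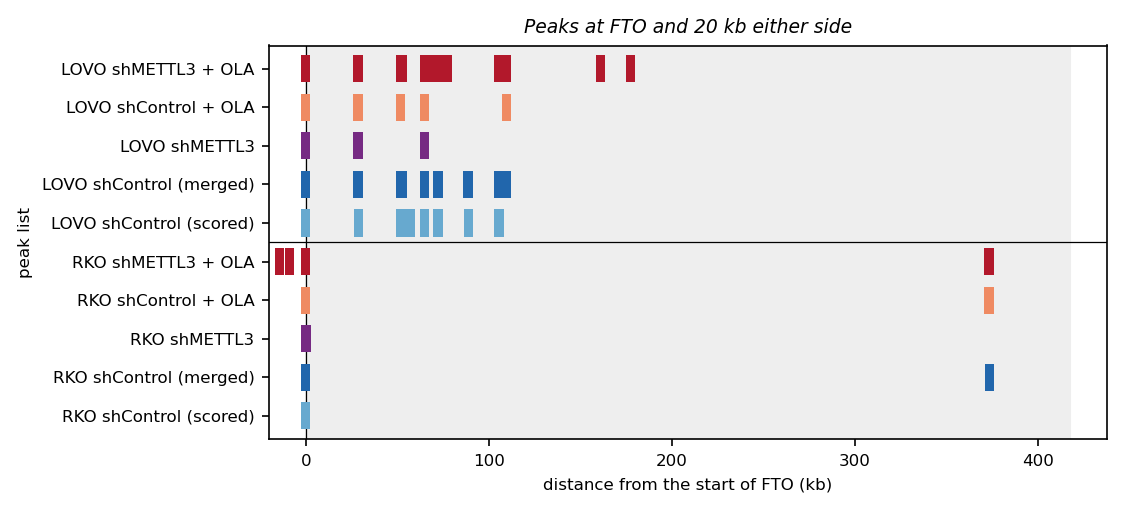
Intervals at FTO by distance from its start (horizontal axis, kb; shaded, the gene body) in the 10 lists, one row each; narrow intervals are drawn wider than scale to be seen. The 13 regions from 28.4 to 177 kb occur in LOVO rows only, and the one at 373 kb in RKO rows only.

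In LOVO the FTO gene-body regions also differed between groups. Away from the start, FTO had 11 intervals in shMETTL3 with olaparib, 4 in shControl with olaparib, 2 in untreated shMETTL3 and 8 in each untreated shControl list. Untreated shMETTL3 was thus lowest and shMETTL3 with olaparib highest, which is also the order of those lists by size. The 2 regions in untreated shMETTL3 were the only ones of FTO in all 5 LOVO lists. They lay 28.4 kb past the start (chr16:53732283-53732856), with scores of 12.2 in shMETTL3 with olaparib, 5.19 in shControl with olaparib and 5.35 in untreated shControl, and 64.6 kb past it (chr16:53768368-53769131), with scores of 8.47, 9.41 and 13.2. The one at 64.6 kb overlaps the right-hand end of the lncRNA gene LOC124903691, which lies inside FTO and overlaps 4 of the 13 regions. Of the 13, 5 were in 1 list only, 4 of them in shMETTL3 with olaparib.

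At the reader genes, 2 more regions were in all 5 LOVO lists and in no RKO list. One was centred at -16.4 kb from the start of YTHDF1 (chr20:63231996-63232974) and 3420 bp from BIRC7, a gene for an inhibitor of apoptosis, with widths of 503, 526, 979, 685 and 492 bp in shMETTL3 with olaparib, shControl with olaparib, untreated shMETTL3, and merged and scored untreated shControl. It was the widest interval at any member in untreated LOVO shMETTL3, and wider there than in merged shControl. The other was centred at -11.3 kb from the start of YTHDC1 (chr4:68361186-68361563), with 262, 302, 202, 378 and 268 bp in those lists. Genome-wide 9.49% of regions away from starts had this pattern, beside 4 of 37 here.

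Other regions were shared by the lines or belonged to RKO. The region 3824 bp past the far end of YTHDF1 (chr20:63191429-63191780) was in 9 lists, missing only from untreated RKO shMETTL3. One 7674 bp past the right-hand end of YTHDF3 (chr8:63220112-63220813) was in 8, with scores of 16.7 and 15.1 in LOVO and RKO shMETTL3 with olaparib. YTHDF2 had a region 11.5 kb inside the gene in 4 LOVO lists and no RKO list (chr1:28747596-28748570), missing from untreated shMETTL3. In RKO, 3 lists held a region 93.0 kb past the YTHDC2 start (chr5:113606478-113606999) and 3 a region 37.2 kb past the ALKBH5 start (chr17:18220887-18221072), neither of which any LOVO list held. ALKBH5 was the one member with more intervals in RKO, with 11 intervals over the LOVO lists and 16 over the RKO lists.

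**Figure D5:**
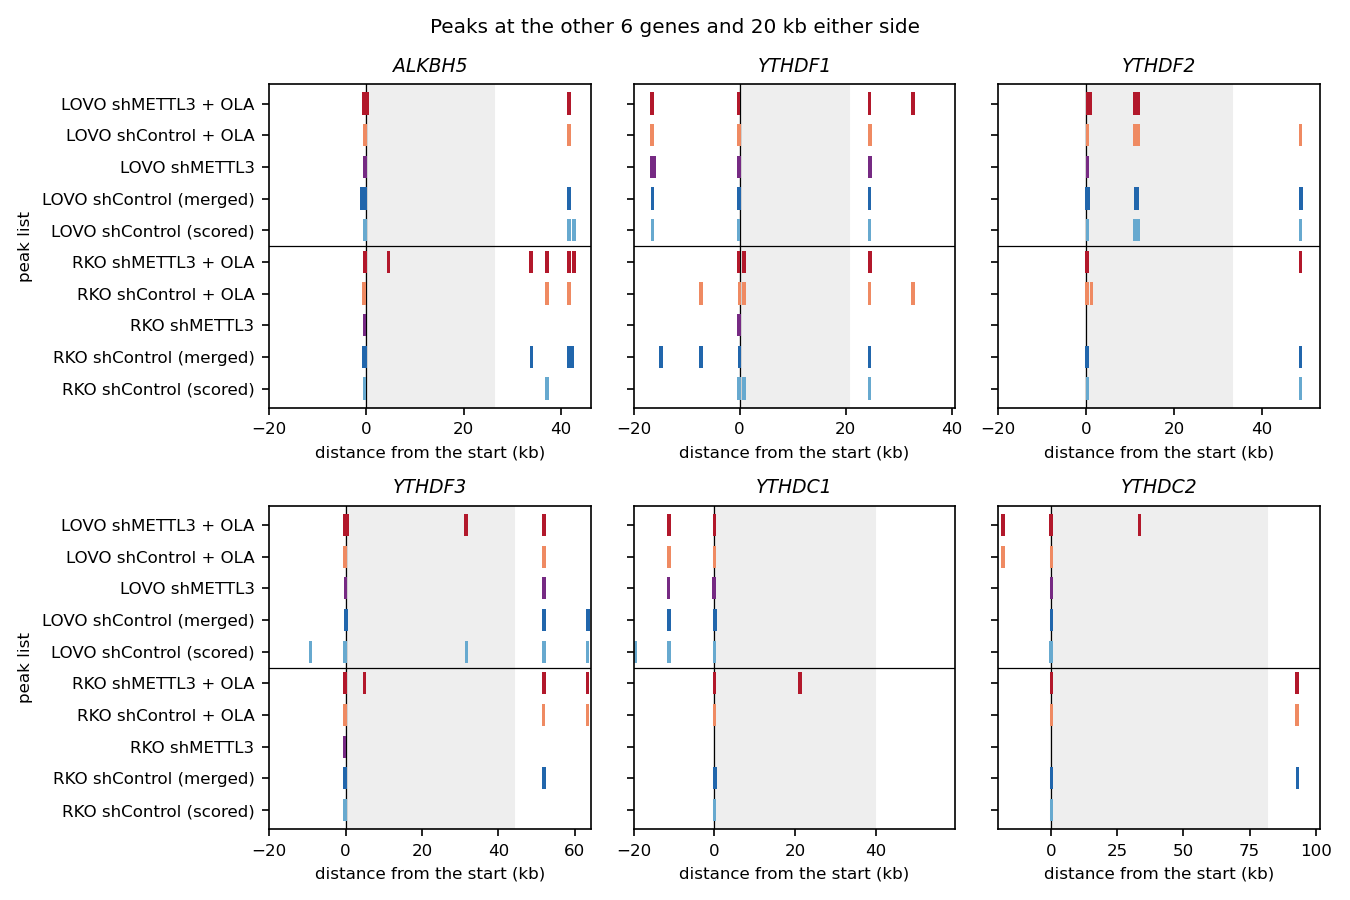
Intervals at the other 6 genes by distance from each start (horizontal axis, kb, upstream negative; shaded, the gene body) in the 10 lists, drawn as for FTO. Regions at -16.4 kb from YTHDF1 and -11.3 kb from YTHDC1 fill the 5 LOVO rows only, and untreated RKO shMETTL3 has start peaks only.

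The genes whose start cover was most like a member's were found by the mean absolute difference in covered bases over the 10 lists. RPGRIP1L differed from FTO by 0 bp, since they share the peak, and WDR55 by 34.8 bp. For YTHDC1 the nearest was SIL1 (39.5 bp) and for YTHDC2 it was AGGF1 (46.5 bp). CEP97 was nearest to YTHDF3 (47.9 bp), FYCO1 to YTHDF2 (53.8 bp), YPEL1 to YTHDF1 (61.1 bp) and SHLD2 to ALKBH5 (84.1 bp). The other nearest genes were PPP6R1 for ALKBH5, SRFBP1 for YTHDF1, PLEKHB2 for YTHDF2, MAN1B1 for YTHDF3, LOC124903762 for YTHDC1 and ARPC3 for YTHDC2. Among the members themselves YTHDC1 and YTHDC2 were closest to each other, at 122 bp, and ALKBH5 and YTHDF1 farthest apart, at 322 bp.

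Other genes of the pathway were read in the same way. With shMETTL3 in untreated cells, start peaks were lost in LOVO at 1 of 9 writer genes, 3 of 5 open genes for readers outside the YTH family, 2 of 7 further AlkB dioxygenases and 3 of 9 open partners of YTH proteins. In RKO the counts were 2 of 9, 5 of 7, 3 of 7 and 6 of 9. Over all genes with a start peak in merged shControl, 30.6% lost it in LOVO and 53.6% in RKO. The share of all genes lost in both lines is not given here. Lost in both lines were IGF2BP2, HNRNPA2B1 and RBMX, whose proteins bind RNA, ALKBH8, which acts on tRNA, the exonuclease gene XRN1, and UPF1, the helicase of nonsense-mediated decay. WTAP, the adaptor of the writer complex, was lost in LOVO, and METTL14, the partner of METTL3, and ZC3H13 in RKO. In untreated LOVO shMETTL3 all 7 erasers and YTH readers kept a start peak, and whether this differs from the other gene groups was not tested.

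With olaparib in shControl cells 1 reader outside the YTH family was lost in LOVO (FMR1), and in RKO 1 was lost (HNRNPA2B1) and 2 gained (IGF2BP2 and RBMX), while NXF1, an mRNA export factor, was gained in LOVO. The losses were 1 of 7 open genes for such readers in LOVO and 1 of 4 in RKO. Over all genes 7.02% and 2.32% were lost, and the shares gained are not given here. Between shMETTL3 and shControl under the drug, FMR1 was gained in both lines and HNRNPA2B1 in RKO. No writer gene and no AlkB dioxygenase was lost or gained in either comparison. In shMETTL3 cells with olaparib every one of these genes that had lost its start peak in untreated shMETTL3 had one again, in both lines. Here longer scored lists were set against shorter merged ones, so form and treatment cannot be told apart. The share over all genes that had lost a peak was not computed. More intervals with olaparib were found at 86.1% of genes in LOVO and 90.6% in RKO.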

How the data were processed

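ATAC-seq peak lists of 20 samples in LOVO and RKO cells were analysed. The submitters' processing notes list, with no roles, DiffBind 3.0.15, MACS2 2.2.7.1, Bowtie2 2.4.2, Trim Galore 0.6.6 and the build hg38. The step that turned the samples of a group into 1 list, any shift for the transposase and any filter are not described in the labels. Deposited by the authors were 6 lists with a score per interval, whose peak names carry replicate 1, and 4 lists of intervals alone, whose only values are positions (other values). No other columns were used, and 0 columns of single samples were read.

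Members and gene lists were chosen with earlier results of these data known. Gene positions came from RefSeq on GRCh38.p14, a patch release of hg38's assembly, for 20037 protein-coding genes; starts came from the RefSeq promoter table, and both ends were taken for genes without an entry there. An overlap of 1 bp counted. Lists of one form were compared where possible, by counts and ratios and with no test. The code was tested against a direct count on the merged untreated shControl lists, whole and with intervals dropped at random. It was run with Python 3.11.15, NumPy 2.4.6, SciPy 1.17.1 and Matplotlib 3.10.9. Named genes were the 7 members, their neighbours within 20 kb, the 2 genes most alike to each in start cover, and genes of the pathway lists lost or gained in both lines; pathway genes lost or gained in 1 line were named after their values were seen.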

Additional observations from a re-analysis of the deposited data

Results flagged for a closer look

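In 4 cases the difference in intervals at a gene had opposite signs in LOVO and RKO. The difference between the lines was not tested, and each value compares 1 list with 1 list. The share of all genes with opposite signs was not computed. With olaparib in shControl cells the whole lists also went opposite ways, at ratios of 0.777 in LOVO and 1.22 in RKO. With shMETTL3 under olaparib both grew, at 1.60 and 1.37. With olaparib against no treatment in shControl cells, the difference at FTO was -4 in LOVO and 1 in RKO, at ALKBH5 -1 in LOVO and 1 in RKO, and at YTHDF3 -3 in LOVO and 2 in RKO. Against the merged untreated list instead, RKO shControl with olaparib had 2 intervals against 2 at FTO, 3 against 4 at ALKBH5 and 3 against 2 at YTHDF3. With shMETTL3 against shControl under olaparib, the difference at YTHDF1 was 1 in LOVO and -2 in RKO. Between both lists of untreated shControl cells, differences from -2 to 2 occurred at single members.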

How the results depend on the processing

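Depth is unknown, and lists of unlike size limit every count. Of 100 alternative values of start peaks lost or gained, 91 stayed within 1.5 times the reported count, and of 58 alternative interval ratios 52 kept their direction, 5 reversed and 1 was exactly 1. All 5 reversed ratios came from cutting the longer list to its widest intervals: 1.18 (LOVO) and 1.33 (RKO) for untreated shMETTL3 against shControl, 0.889 for shMETTL3 against shControl with olaparib in RKO, and 0.692 (LOVO) and 0.75 (RKO) for olaparib in shMETTL3. The same cut gave 1 for olaparib in RKO shControl. The cut removes intervals of the longer list only. It also gave 1 start peak gained in LOVO (YTHDF1), 1 lost (YTHDF2) and 2 gained in RKO (FTO and YTHDF1) for untreated shMETTL3, and 2 lost and 1 gained for olaparib in RKO shMETTL3. With 200 bp of cover required, 5 were lost with untreated shMETTL3 in RKO, 5 gained with olaparib in RKO shMETTL3, and 1 (ALKBH5) gained with olaparib in RKO shControl. A score of at least 5 gave 1 gained there (YTHDF2). Requiring 2 or more lists of a line left 13 regions in LOVO only and 5 in RKO only; without FTO, an alternative chosen after seeing the data, 8 were in LOVO only. Other windows, flanks and the other untreated shControl list kept the reported counts within 1.5 times or the direction of the ratio. No paired analysis was possible because there is 1 list per group and form, and how numbered samples entered it is not given.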
